A study of Rattus norvegicus with 48 samples.

Results

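The ribbon synapse of the retina was followed through 9 genes, Stx3, Snap25, Vamp2, Cplx3, Cplx4, Ctbp2, Bsn, Pclo and Cacna1f. They were found by symbol and are 9 of the 32858 gene names shared by both deposited count tables, and all 9 passed the filter on low counts in the retina and in the posterior eye. The set was drawn up with results of these data known, and the measured values behind the choice are not stated. Stx3 is 1 of the 8 genes called between ovariectomized and sham-operated retinas over both ages, so the set is taken to be selected on the retinal contrasts of ovariectomy, and the retinal effect of ovariectomy is given for all 9 genes as a description, with no test. The animals were 24 female Long-Evans rats, and each gave 1 retina library and 1 posterior eye library, which makes 48 libraries. Ovariectomy (OVX), removal of the ovaries, is used as a surgical model of menopause, and the sham animals keep their ovaries. The young OVX and young sham groups were 3 to 4 months old and the aged OVX and aged sham groups, which the submitters call middle-aged, 9 to 10 months old, with 6 animals in each. The question put by the design is what loss of the ovaries does to gene expression in each tissue at each age.

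Rods, cones and bipolar cells release glutamate without pause at ribbon synapses, where a protein sheet, the ribbon, holds vesicles near the release site. Fusion needs a SNARE complex, for which the ribbon synapse uses syntaxin 3 (Stx3) in place of the syntaxin 1 of most synapses, with SNAP-25 (Snap25) and synaptobrevin 2 (Vamp2). Complexins 3 and 4 (Cplx3 and Cplx4) clamp that complex, the Ctbp2 gene makes the ribbon protein RIBEYE from a start of its own beside a widespread transcriptional corepressor, bassoon and piccolo (Bsn and Pclo) are scaffolds of the active zone, and Cacna1f makes the pore of the L-type calcium channel that gates release from photoreceptors.

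The promoters of 4 of the genes are shown because these genes differed in the posterior eye, Stx3 and Vamp2 keeping a level in eyes with few rod transcripts and Cplx4 and Cacna1f not. The choice of 4 was made after the values were seen. Each sequence is the 250 bases before the gene's start in RefSeq, build GRCr8, written 5′ to 3′ on the strand of the gene, and capitals mark each CG pair.
Stx3, chr1:218110467-218110716, minus strand: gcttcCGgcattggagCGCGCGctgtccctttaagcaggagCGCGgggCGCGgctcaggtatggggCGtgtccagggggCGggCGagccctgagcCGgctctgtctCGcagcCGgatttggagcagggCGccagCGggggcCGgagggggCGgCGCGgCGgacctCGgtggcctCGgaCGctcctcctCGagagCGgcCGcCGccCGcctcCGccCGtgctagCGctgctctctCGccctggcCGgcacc
Vamp2, chr10:54292539-54292788, plus strand: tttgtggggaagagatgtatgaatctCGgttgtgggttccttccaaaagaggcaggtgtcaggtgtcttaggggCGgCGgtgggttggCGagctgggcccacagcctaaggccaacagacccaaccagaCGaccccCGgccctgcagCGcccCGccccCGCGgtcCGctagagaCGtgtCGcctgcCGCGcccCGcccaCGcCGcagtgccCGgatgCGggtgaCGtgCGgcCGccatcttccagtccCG
Cplx4, chr18:61767755-61768004, minus strand: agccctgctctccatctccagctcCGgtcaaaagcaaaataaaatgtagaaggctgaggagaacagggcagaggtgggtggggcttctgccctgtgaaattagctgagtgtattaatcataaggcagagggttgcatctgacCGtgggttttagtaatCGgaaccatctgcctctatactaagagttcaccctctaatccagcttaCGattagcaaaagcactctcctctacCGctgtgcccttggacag
Cacna1f, chrX:17568309-17568558, minus strand: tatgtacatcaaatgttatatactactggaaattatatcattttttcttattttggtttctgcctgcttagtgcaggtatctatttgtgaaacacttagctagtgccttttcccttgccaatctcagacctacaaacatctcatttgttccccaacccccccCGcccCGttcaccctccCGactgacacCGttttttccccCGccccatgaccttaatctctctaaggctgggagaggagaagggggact
The Stx3 window held 34 CG pairs and that of Vamp2 24, against 5 each for Cplx4 and Cacna1f, and the median over 33469 rat promoters was 5. Among the other genes with an entry, Bsn had 33 CG pairs, Pclo 29, Ctbp2 7 and Cplx3 6. Snap25 had no entry. TAATCC, the letters at the core of sites of the photoreceptor homeobox factor CRX, was found on either strand in 2 of the 8 windows, 120 bases before the start of Ctbp2 and 56 bases before that of Cplx4, and in 6.34% of all promoters. GGTCANNNTGACC, the palindrome of the oestrogen response element, was in 0 of the 8 windows and in 0.0239% of all promoters, searched on both strands.

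Retina libraries held 12916146 to 30737547 counts each, and posterior eye libraries 11470945 to 22971367. The labels matched the tissue marker named here. Col1a1, a type I collagen gene, was at 0.155 to 4.20 CPM (counts scaled by the size of the library) in the retina and at 765 to 3104 CPM in the posterior eye. Posterior eye libraries held mixed tissue, with lens, muscle and retinal transcripts in amounts that differed between animals. Library numbers ran in the order of the groups, so handling order and group cannot be told apart. CPM were not divided by transcript length, so each gene is compared with itself alone.

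In the retina the 9 genes varied little. From the lowest to the highest of 24 libraries the CPM differed 1.18-fold for Snap25, the narrowest of the set, 1.21-fold for Vamp2, Cplx3 and Cplx4, 1.25-fold for Ctbp2, 1.29-fold for Stx3, 1.32-fold for Cacna1f, 1.40-fold for Pclo and 1.57-fold for Bsn, the widest. The lowest raw count of any of them in a retina library was 913, for Bsn. In bulk tissue, fewer cells of a type and less RNA per cell cannot be told apart, and this holds for each level given here.

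**Figure D1:**
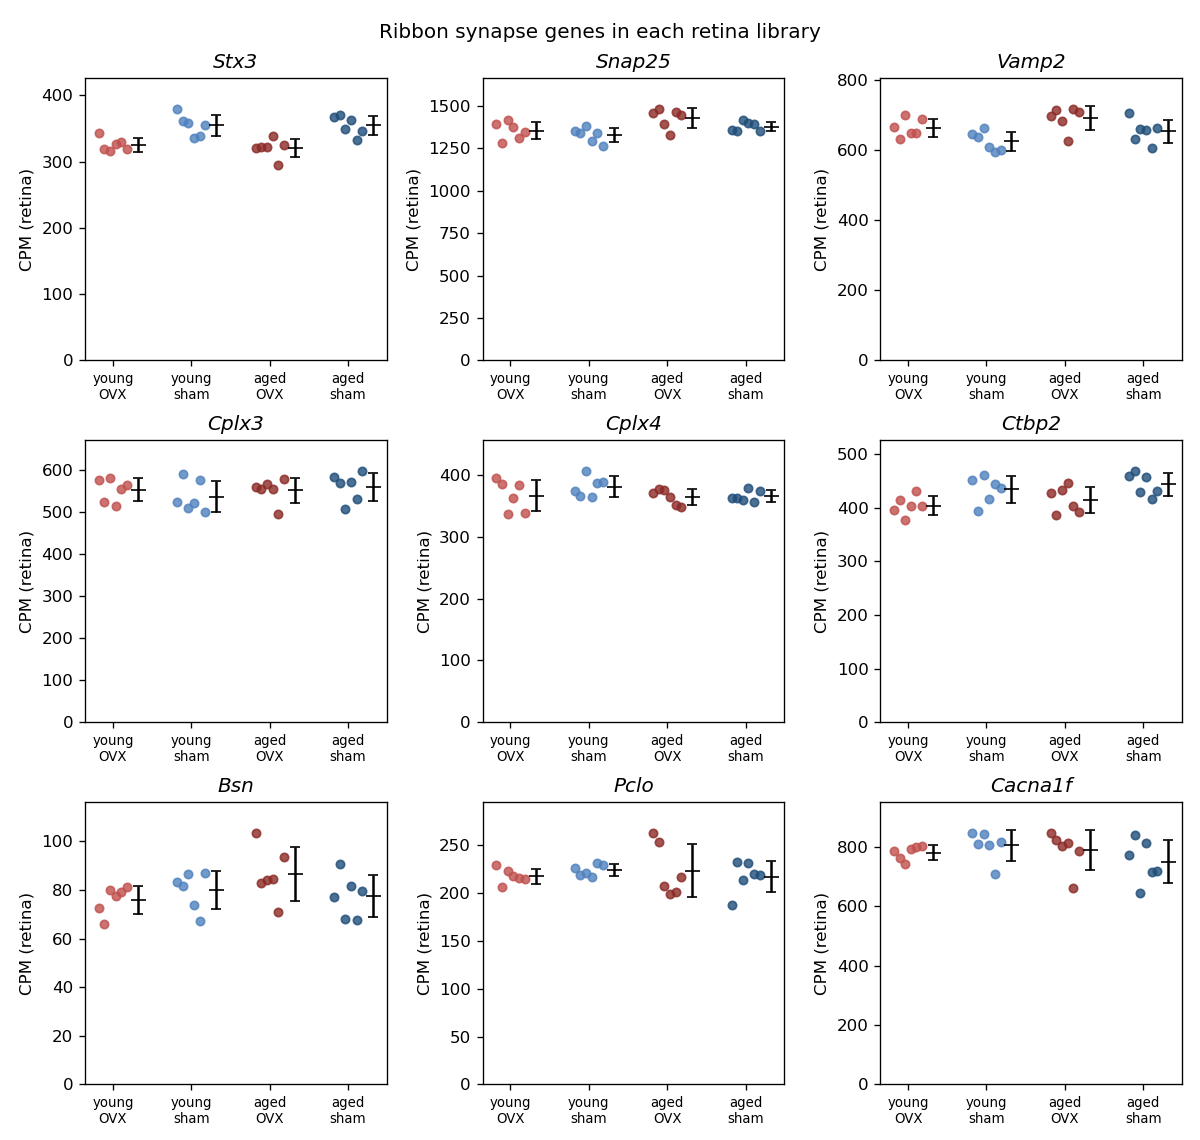
Level of each gene in CPM (y axis, from 0) in each of the 24 retina libraries, with young OVX, young sham, aged OVX and aged sham from left to right. Points are single animals and the bar beside each group is its mean ± SD (n = 6). For Stx3 the OVX libraries lie between 295 and 344 CPM and the sham libraries between 333 and 380.1 CPM.

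Among the SNARE genes, Stx3 was lower after OVX at both ages. It lay between 316 and 344 CPM (median 323) in young OVX retinas and between 335 and 380.1 CPM (median 357) in young sham retinas. In each age all 6 OVX libraries lay below the sham median and 5 of 6 lay below every sham library. It lay between 295 and 338 CPM (median 322) in aged OVX retinas and between 333 and 371 CPM (median 356) in aged sham retinas. The groups overlapped through 1 OVX library at each age, at 344 CPM in young and 338 CPM in aged animals. The log2 fold change was -0.12 ± 0.04 (SE) in young animals, -0.15 ± 0.04 in aged animals and -0.14 ± 0.03 as the mean over both ages, which is 8.95% less in OVX. The mean over both ages is taken as the value behind the choice. Its edgeR quasi-likelihood adjusted p of 0.0478 lay just inside the threshold of 0.05, as did that of Slc20a1, a phosphate transporter (0.0481), and the nearest value outside was that of Atxn2l (0.0574).

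These contrasts are taken as used in the choice, so their counts are a description. Over all 15481 genes tested 8 were called, 0.0517%, and Stx3 was the 1 of 9 ribbon synapse genes among them, a count that the choice of the set fixes. In young OVX against young sham retinas 0 of the 9 were called, beside 0.0194% of all genes, and in aged OVX against aged sham retinas 0 of the 9, beside 0.00646%. The place of Stx3 beside the threshold moved with the samples. Its adjusted p lay above 0.05 in 19 of the 24 fits that each left out 1 library and ran from 0.0369 to 0.123, while the log2 fold change stayed between -0.14 and -0.12. The call stayed without the libraries of young OVX animal 7, young sham animals 4 and 5, aged OVX animal 22 or aged sham animal 17. It was also lost without the filter on low counts (adjusted p = 0.0752), with a covariate for pigment epithelium (0.0739) and with one for lens (0.110).

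The partners of Stx3 in the SNARE complex did not share its direction. Vamp2, the synaptobrevin of the vesicle membrane, lay between 632 and 699.8 CPM (median 658) in young OVX retinas and between 597 and 663 CPM (median 625) in young sham retinas. It lay between 626 and 719 CPM (median 705) in aged OVX retinas and between 606 and 706 CPM (median 659) in aged sham retinas. All 6 young OVX libraries and 5 of 6 aged OVX libraries lay above the sham median of their age, and the groups overlapped at both ages. The log2 fold change was 0.09 ± 0.04 in young and 0.08 ± 0.04 in aged animals, and 0.08 ± 0.03 over both. Snap25, the SNARE protein of the plasma membrane that pairs with syntaxin, lay between 1279.9 and 1413 CPM (median 1359.6) in young OVX retinas and between 1261 and 1380.0 CPM (median 1339) in young sham retinas. It lay between 1326 and 1483 CPM (median 1451) in aged OVX retinas and between 1349 and 1417 CPM (median 1375) in aged sham retinas. Its groups overlapped at both ages, with a log2 fold change of 0.04 ± 0.02 over both.

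The 4 groups lay close together for both complexins. Cplx3, a complexin of ribbon synapses and of some amacrine cells, lay between 514 and 579 CPM (median 559) in young OVX retinas and between 499 and 589 CPM (median 521) in young sham retinas. It lay between 494 and 576 CPM (median 556) in aged OVX retinas and between 506 and 597 CPM (median 568) in aged sham retinas. Cplx4, a complexin of photoreceptor terminals, lay between 336 and 394 CPM (median 373) in young OVX retinas and between 365 and 406 CPM (median 380.2) in young sham retinas. In aged animals Cplx4 lay between 347 and 377 CPM (median 367) in OVX retinas and between 355 and 379 CPM (median 362) in sham retinas. For both genes the groups overlapped at each age, and the log2 fold change over both ages was 0.01 ± 0.03 for Cplx3 and -0.03 ± 0.03 for Cplx4.

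Among the genes of the ribbon and its scaffold, Ctbp2 lay on the same side as Stx3. It lay between 377 and 431 CPM (median 403) in young OVX retinas and between 395 and 460.4 CPM (median 441) in young sham retinas. It lay between 387 and 446 CPM (median 416) in aged OVX retinas and between 417 and 469 CPM (median 444) in aged sham retinas. All 6 young OVX libraries and 5 of 6 aged OVX libraries lay below the sham median of their age, with overlap at both ages, and the log2 fold change was -0.10 ± 0.04 at each age and -0.10 ± 0.03 over both. The counts do not separate RIBEYE from the corepressor, since both come from the Ctbp2 gene.

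Bassoon, which anchors the ribbon, had different signs at the 2 ages. Bsn lay between 66.01 and 81.1 CPM (median 78.3) in young OVX retinas and between 67.3 and 87.0 CPM (median 82.6) in young sham retinas, a log2 fold change of -0.07 ± 0.08. In aged animals Bsn lay between 70.9 and 104 CPM (median 84.4) in OVX retinas and between 67.7 and 90.8 CPM (median 78.3) in sham retinas, a log2 fold change of 0.16 ± 0.08. The groups overlapped at both ages, and Bsn was the least even of the 9 genes in the retina. Pclo, the related scaffold piccolo, lay between 206 and 229 CPM (median 217) in young OVX retinas and between 217 and 232 CPM (median 223) in young sham retinas. It lay between 199 and 263 CPM (median 212) in aged OVX retinas and between 188 and 233 CPM (median 219) in aged sham retinas. Over both ages the log2 fold change was 0.04 ± 0.06 for Bsn and -0.00 ± 0.04 for Pclo.

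Cacna1f, the calcium channel gene, lay between 742 and 802 CPM (median 789.8) in young OVX retinas and between 707 and 846 CPM (median 811) in young sham retinas. It lay between 660.2 and 847 CPM (median 809) in aged OVX retinas and between 643 and 841 CPM (median 745) in aged sham retinas. In young animals all 6 OVX libraries lay below the sham median, and in aged animals 5 of 6 lay above it. The log2 fold change was -0.04 ± 0.06 in young and 0.07 ± 0.06 in aged animals, and 0.01 ± 0.04 over both. Across the 9 genes, 5 log2 fold changes lay above 0 and 4 below over both ages, with a median of 0.01, and the median over all genes tested was -0.00.

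**Figure D2:**
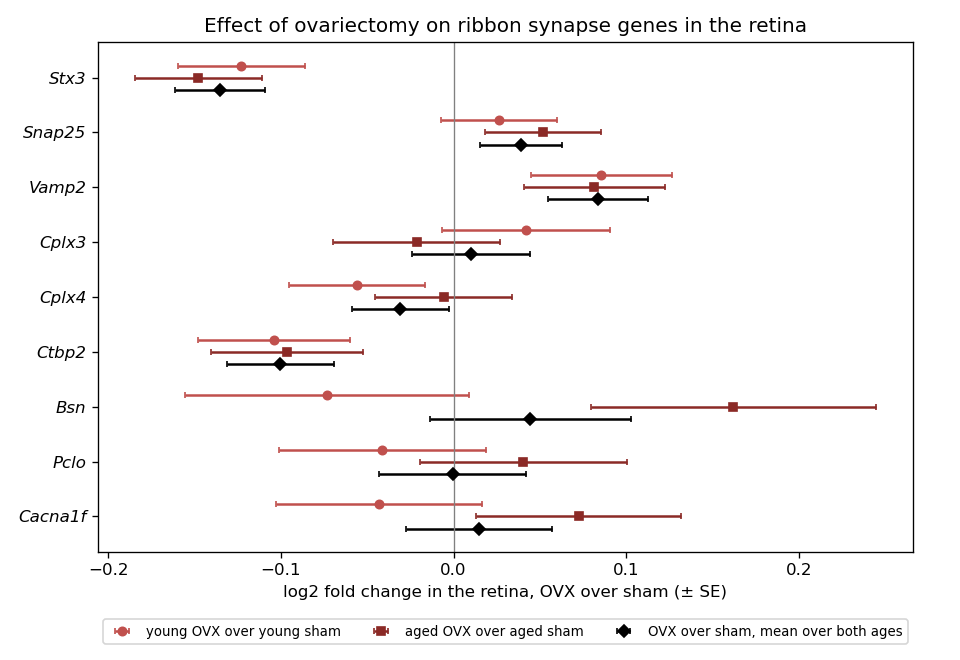
log2 fold change in the retina, OVX over sham (x axis, ± SE), of each gene (rows), for young animals (circles), aged animals (squares) and the mean over both ages (diamonds). Stx3 and Ctbp2 lie left of 0 at both ages, Vamp2 and Snap25 right of it, and Cplx3, Bsn, Pclo and Cacna1f on different sides at the 2 ages.

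Whether the effect of OVX differed with age was tested by the interaction, which is taken as not used in the choice, although the same libraries enter it. It called 0 of the 9 genes by edgeR, where 0.0452% of all genes were called, and neither DESeq2 nor limma-voom called any of the 9. Among the 7 genes that edgeR called, Rgr, Ttr, Rpe65 and Tf are pigment epithelium markers. The unadjusted p lay under 0.05 for 0 of the 9 by edgeR, beside 6.21% of all genes. By DESeq2 it did so for 1 of the 9, and the share of all genes by DESeq2 is not given here. The interaction was -0.02 ± 0.05 on the log2 scale for Stx3 (adjusted p = 0.946) and 0.01 ± 0.06 for Ctbp2 (adjusted p = 0.986). The interaction of Bsn, at 0.24 ± 0.12 (adjusted p = 0.804), was the one farthest from 0, and that of Cacna1f was 0.12 ± 0.08 (adjusted p = 0.841). The different signs of Bsn and Cacna1f at the 2 ages thus did not pass the test.

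Age was compared within each surgery. Between aged sham and young sham retinas 0 of the 9 genes were called by edgeR, against 0.0388% of all genes, and neither DESeq2 nor limma-voom called any. By edgeR the unadjusted p was under 0.05 for 0 of the 9, beside 10.7% of all genes. Stx3 came to 0.00 ± 0.04 on the log2 scale (adjusted p = 0.992), and its medians of 356 CPM in aged sham and 357 CPM in young sham retinas nearly coincide. The value farthest from 0 was that of Cacna1f, at -0.10 ± 0.06 (adjusted p = 0.558). Between aged OVX and young OVX retinas 0 of 9 were called, against 0.0711% of all genes, and neither DESeq2 nor limma-voom called any. By edgeR the unadjusted p was under 0.05 for 2 of the 9, Snap25 and Bsn, beside 9.23% of all genes. For Snap25 the log2 fold change was 0.08 ± 0.03 (adjusted p = 0.465), for Bsn 0.19 ± 0.08 (adjusted p = 0.4659) and for Stx3 -0.02 ± 0.04 (adjusted p = 0.907). Both age comparisons draw on the groups of the OVX comparisons.

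The order of the group medians gives the same picture in levels. For Stx3 it ran young sham, aged sham, young OVX and aged OVX from high to low, and neither the neighbouring sham groups nor the neighbouring OVX groups differed past the threshold of the age tests. For Ctbp2 it ran aged sham, young sham, aged OVX and young OVX. For Vamp2 and Snap25 aged OVX was highest and young sham lowest. For Bsn aged OVX was highest and aged sham lowest, and for Cplx3 aged sham was highest and young sham lowest. For Cplx4 and Cacna1f young sham was highest and aged sham lowest, and for Pclo young sham was highest and aged OVX lowest. The ranges of all 4 groups overlapped for each of these genes.

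Other genes of the synapse were taken from 5 lists of 77 partners, of which 73 were tested in the retina. Between OVX and sham over both ages edgeR, DESeq2 and limma-voom each called 0 of them. By edgeR 8 had an unadjusted p under 0.05, beside 10.8% of all genes. Of the 73 partners 28 lay above 0 and 45 below, where 49.9% of all genes lay above 0. The medians of the lists ran from -0.05 for presynaptic calcium channel partners to -0.00 for active zone and ribbon partners. Among the calcium channel partners, Cabp4, the calmodulin-like protein that tunes the channel of Cacna1f, averaged 669.9 ± 37 CPM in young OVX and 600.4 ± 56.2 CPM in young sham retinas, and 692 ± 72.3 CPM in aged OVX and 638 ± 67.2 CPM in aged sham retinas (SD, n = 6 each). Its log2 fold change over both ages was 0.14 ± 0.05 (adjusted p = 0.314), and that of Atp2b1, a calcium pump of the plasma membrane, -0.07 ± 0.03 (adjusted p = 0.306). Elfn1, the adhesion protein that joins rods to ON bipolar cells, averaged 37.1 ± 2.02 CPM in young OVX and 31.4 ± 2.73 CPM in young sham retinas, and 34.6 ± 3.44 CPM in aged OVX and 33.7 ± 2.05 CPM in aged sham retinas. Over both ages it had 0.14 ± 0.04 (adjusted p = 0.267) and Lrit1 -0.08 ± 0.03 (adjusted p = 0.328). Nsf, the ATPase that takes SNARE complexes apart, had -0.06 ± 0.03 (adjusted p = 0.382), and Stx2, another syntaxin, had 0.09 ± 0.04 (adjusted p = 0.419).

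Age was compared for the partners as well. Between aged OVX and young OVX retinas 55 of the 73 partners lay above 0 and 18 below, where 50.4% of all genes lay above 0, and 13 had an unadjusted p under 0.05 by edgeR, beside 9.23% of all genes. Of these 73, edgeR and limma-voom called 0 and DESeq2 called 2, Dnm1 and Dnm3, of 67 genes that it called in all. Of the 17 genes of synaptic vesicles and endocytosis 15 lay above 0, and their median was 0.09 on the log2 scale beside 0.00 over all genes. Dnm3, a dynamin that cuts endocytic vesicles free, averaged 84.8 ± 5.47 CPM in aged OVX and 72.1 ± 5.82 CPM in young OVX retinas (log2 0.24 ± 0.05, adjusted p = 0.0562). Dnm1, the main dynamin of nerve endings, averaged 489 ± 24.8 CPM in aged OVX and 436 ± 14.9 CPM in young OVX retinas (log2 0.16 ± 0.04, adjusted p = 0.0819). In the same comparison 9 of 10 pigment epithelium markers lay below 0, with a median of -1.07 on the log2 scale and 2 called, all 10 lens markers lay below 0 with a median of -0.55, and all 10 ganglion cell markers lay above 0 with a median of 0.14. Their part in the partner values was not tested. In sham animals 38 partners lay above 0 and 35 below with age, where 49.8% of all genes lay above 0. Of the 73 partners 12 had an unadjusted p under 0.05 by edgeR, beside 10.7% of all genes, while edgeR, DESeq2 and limma-voom each called 0. Cplx1, the complexin of conventional synapses, averaged 89.0 ± 5.58 CPM in aged sham and 80.1 ± 2.96 CPM in young sham retinas (log2 0.15 ± 0.04, adjusted p = 0.187).

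Markers of the cells and tissues that the retina libraries held are given beside the OVX effect. Of 14 rod markers 9 lay below 0 over both ages, with a median log2 fold change of -0.02, and their summed level was 98601 to 104636 CPM in young OVX, 91718 to 110979 CPM in young sham, 97345 to 110091 CPM in aged OVX and 99074 to 108125 CPM in aged sham retinas. With the rod level as a covariate Stx3 had a log2 fold change of -0.13 ± 0.02. Of 9 bipolar markers 8 lay below 0, with a median of -0.08, and they summed to 1417 to 1634 CPM in young OVX, 1531 to 1793 CPM in young sham, 1396 to 1776 CPM in aged OVX and 1557 to 1811 CPM in aged sham retinas. Of 10 cone markers 9 lay below 0, with a median of -0.08. The part of bipolar cells and cones in the Stx3 value was not tested.

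Lens and pigment epithelium border the retina, and their markers differed widely between retina libraries. All 10 lens markers lay above 0 over both ages, with a median of 0.55 on the log2 scale (-0.01 in young and 1.11 in aged animals), and none was at 0 in any library. They summed to 14249.9 to 60953 CPM in young OVX, 5015 to 58134 CPM in young sham, 4446 to 36054 CPM in aged OVX and 3322 to 27142 CPM in aged sham retinas. With the lens level as a covariate, an alternative added after the data were seen, Stx3 had -0.13 ± 0.03. Of 10 pigment epithelium markers 8 lay below 0, with a median of -0.16 (0.73 in young and -1.01 in aged animals), and they summed to 476 to 964 CPM in young OVX, 357 to 765 CPM in young sham, 299 to 502 CPM in aged OVX and 546 to 1497 CPM in aged sham retinas. With that level as a covariate Stx3 had -0.13 ± 0.03.

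The genes whose level followed Stx3 most closely were found by the Pearson r of log2 CPM over the 24 retina libraries after each group mean was taken away, among 10809 genes with a mean of 5 CPM or more. They were MGC116202 (r = 0.83), Impg1, a proteoglycan of the matrix around photoreceptors (0.79), Zfp444 (0.77), Dnaaf2 (0.77) and Mier2 (0.77). Among the other 8 ribbon synapse genes, Cacna1f came nearest with r = 0.69, at place 22, followed by Bsn (0.55) and Ctbp2 (0.44). Cplx4 had 0.33, Cplx3 0.29, Vamp2 0.08, Pclo 0.07 and Snap25 -0.12. These libraries share depth and tissue makeup, and the values describe them with no test.

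In the posterior eye the same genes spread far more widely. Stx3 lay between 29.8 and 135 CPM (median 36.6) in young OVX eyes and between 30.1 and 119.7 CPM (median 61.98) in young sham eyes. It lay between 23.9 and 95.2 CPM (median 40.6) in aged OVX eyes and between 21.2 and 115 CPM (median 52.97) in aged sham eyes. All 4 groups overlapped over most of their range. Snap25 lay between 1.13 and 505 CPM (median 38.5) in young OVX eyes and between 7.39 and 464 CPM (median 189) in young sham eyes. It lay between 2.91 and 333 CPM (median 64.4) in aged OVX eyes and between 2.85 and 418 CPM (median 128) in aged sham eyes. From the lowest to the highest of 24 libraries the CPM differed 3.21-fold for Ctbp2, 3.85-fold for Vamp2, 6.39-fold for Stx3, 25.7-fold for Pclo, 37.8-fold for Bsn, 328-fold for Cacna1f, 438-fold for Cplx4, 448-fold for Snap25 and 926-fold for Cplx3. Without the library of young OVX animal 9 it was 277-fold for Cplx4, 178-fold for Snap25 and 224-fold for Cplx3, a setting added after the data were seen. The order of these spreads differs from that in the retina, where Snap25 was the most even.

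These spreads were set beside the rod transcript content of the sample, the sum of 14 rod markers. Both were compared with the retina library of the same animal on the scale of a fit over both tissues. The rod sum of the posterior eye was 0.117% to 39.9% of that of the animal's own retina, with a median of 6.26%, under 1% in 5 animals and over 10% in 11. The lowest share, in animal 9, and the highest, in animal 10, both came from the young OVX group. Snap25 in the posterior eye was 0.0882% to 40.1% of its own retina level (median 6.44%), Cplx3 0.0391% to 40.3% (median 6.10%), Cplx4 0.101% to 40.5% (median 6.21%) and Cacna1f 0.115% to 34.8% (median 6.11%). These 4 genes thus covered the range of the rod share. The level per rod count differed between posterior eyes 1.97-fold for Cplx4, 2.05-fold for Cacna1f, 2.51-fold for Snap25 and 3.28-fold for Cplx3, which was 1.78-fold without animal 9.

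Stx3, Vamp2 and Ctbp2 instead levelled off where rod transcripts ran out. Their lowest level in a posterior eye was 6.48% of the own retina for Stx3, 12.2% for Vamp2 and 14.7% for Ctbp2, with medians of 14.6%, 19.8% and 21.7%. In animal 9, with the lowest rod share, the posterior eye library held 606 counts of Stx3, 1632 of Vamp2 and 1268 of Ctbp2. The same library held 4 counts of Cplx3, 6 of Cplx4, 15 of Cacna1f and 22 of Snap25. The level per rod count differed 83.6-fold between posterior eyes for Stx3, 106-fold for Vamp2 and 128-fold for Ctbp2. Bsn (22.2-fold) and Pclo (23.3-fold) came between, with 22 and 95 counts in animal 9. Without that animal the level per rod count differed 29.7-fold for Stx3, 46.1-fold for Vamp2, 54.6-fold for Ctbp2, 11.2-fold for Bsn and 9.90-fold for Pclo.

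**Figure D3:**
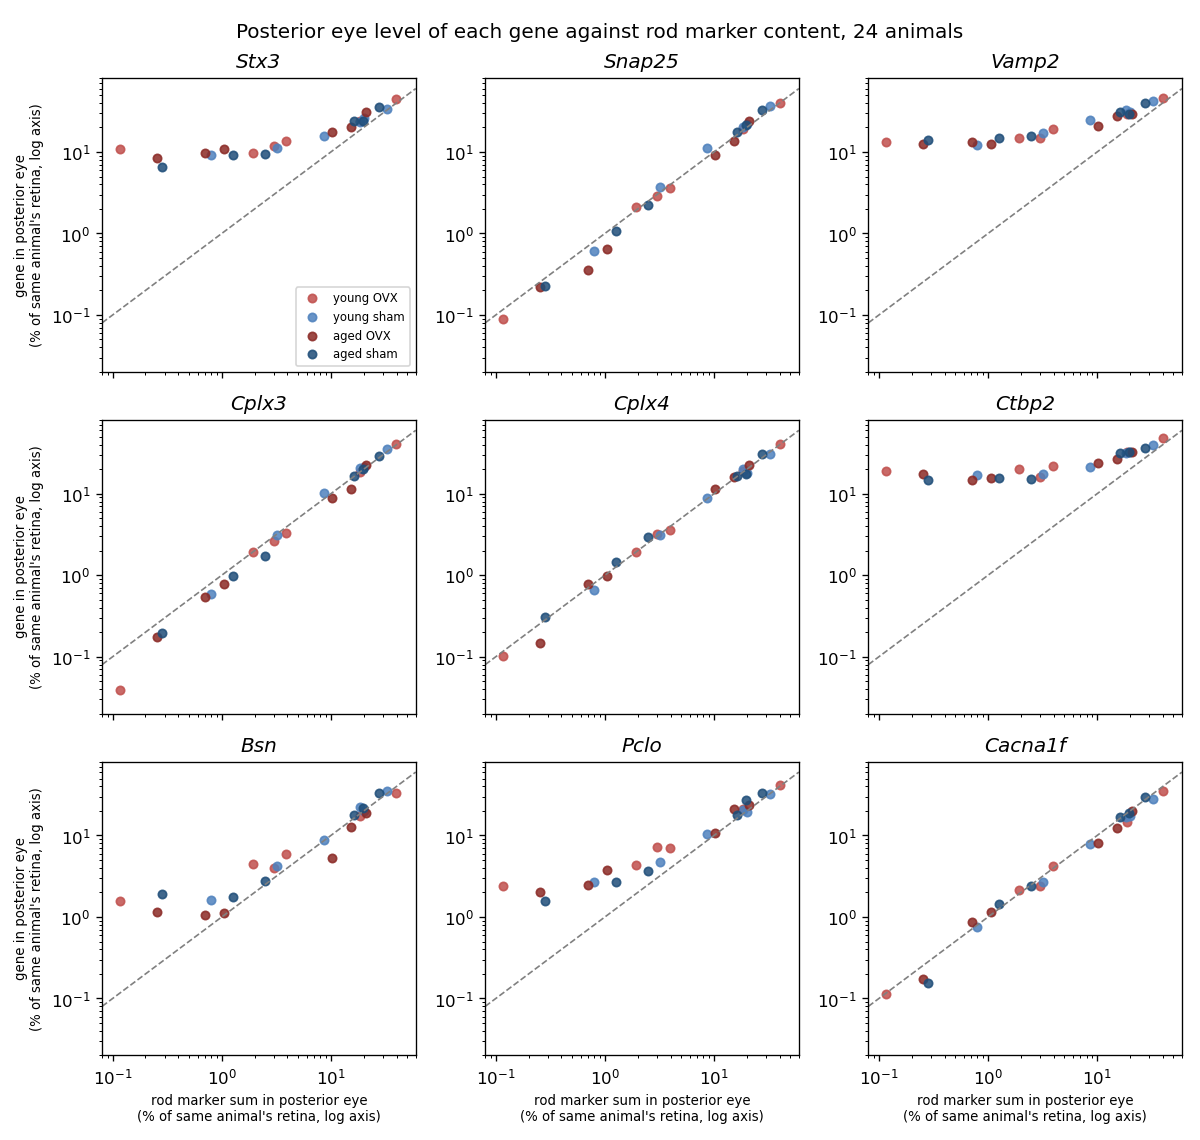
Level of each gene in the posterior eye as a percentage of the same animal's retina (y axis, log scale) against the rod marker sum in the posterior eye as a percentage of the same animal's retina (x axis, log scale), 1 point per animal (n = 24), coloured by group. The dashed line marks equal percentages. Snap25, Cplx3, Cplx4 and Cacna1f lie along the line, while Stx3, Vamp2 and Ctbp2 flatten at low rod share.

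The part of each posterior eye level beyond the rod share was estimated as the level minus the own retina level multiplied by the rod share. It was above 0 in 24 of 24 animals for Stx3, between 4.58 and 32.3 CPM with a median of 24.9 CPM. It was above 0 in 24 of 24 animals also for Vamp2 (38.6 to 92.8 CPM, median 78.8 CPM) and Ctbp2 (29.5 to 71.8 CPM, median 57.0 CPM). For Snap25 it was above 0 in 12 of 24 animals, for Cplx3 in 9, for Cplx4 in 14 and for Cacna1f in 7. Pclo had a median of 4.14 CPM (22 of 24 above 0) and Bsn of 0.689 CPM (18 of 24). These points share the libraries and the rod sum, and the division of the genes is a description. Of the 4 promoters printed, the CG-rich ones belong to Stx3 and Vamp2, though Ctbp2, with 7 CG pairs, stands with them and Bsn and Pclo, with 33 and 29, do not. The Ctbp2 window was not assigned to RIBEYE or to the corepressor. The counts pool both products, so its CG pairs cannot be set against the level of either.

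The partner genes of the posterior eye covered both kinds of pattern. Among the 19 other SNARE and fusion genes the spread over 24 libraries ran from 1.28-fold for Napa, a cofactor that takes SNARE complexes apart, to 302-fold for Cplx1, with a median of 3.76-fold. Among the 13 active zone and ribbon partners it ran from 1.39-fold for Erc1, a scaffold found in many cells, to 70.6-fold for Ppfia2, with a median of 8.09-fold. Of 15 trans-synaptic and ON bipolar genes 4 were at 0 in a library, and the others ran from 1.54-fold for Dag1 to 539-fold for Gpr179. The rod markers ran from 75.1-fold to 572-fold, with a median of 387-fold, and 8 skeletal muscle markers from 4.11-fold to 5.45-fold. The genes at the ends of each range were named after their values were seen.

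OVX was compared with sham in the posterior eye, a tissue taken as not used in the choice. All 9 genes had a log2 fold change below 0 over both ages, from -0.19 ± 0.23 for Ctbp2 to -0.58 ± 0.86 for Cplx3, and none was called by edgeR, DESeq2 or limma-voom, with 0 at an unadjusted p under 0.05. Of the 16401 genes that edgeR tested it called 0 (0%), 938 (5.72%) had an unadjusted p under 0.05 and 49% lay above 0. DESeq2, fitted to the 25248 genes with a count, called 67. Stx3 had -0.23 ± 0.34 (adjusted p = 0.976), Snap25 -0.53 ± 0.87 (adjusted p = 0.976) and Vamp2 -0.21 ± 0.26 (adjusted p = 0.976). All 14 rod markers lay below 0 in the same comparison, with a median of -0.42. The standard errors, up to 0.87, mean that a change of the size seen for Stx3 in the retina was not detectable here.

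When the rod level was a covariate the standard errors shrank and none of the 9 genes was called. The log2 fold change of Stx3 was then 0.05 ± 0.14 (adjusted p = 0.940), that of Vamp2 0.00 ± 0.11 (adjusted p = 0.993) and that of Ctbp2 -0.01 ± 0.11 (adjusted p = 0.992). Among the genes that followed the rod share, Cplx4 had -0.04 ± 0.06 (adjusted p = 0.892), Cacna1f -0.02 ± 0.07 (adjusted p = 0.960), Cplx3 -0.10 ± 0.08 (adjusted p = 0.733) and Snap25 -0.14 ± 0.10 (adjusted p = 0.700). The scaffolds had -0.15 ± 0.23 for Bsn (adjusted p = 0.876) and 0.23 ± 0.18 for Pclo (adjusted p = 0.732). The values of Stx3, Vamp2 and Pclo changed sign with the covariate, and none of them was called in either fit. The rod level entered as a straight line on the log2 scale. Stx3, Vamp2 and Ctbp2 flatten at low rod share, so the covariate describes them less well than the genes that followed the rod share.

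**Figure D4:**
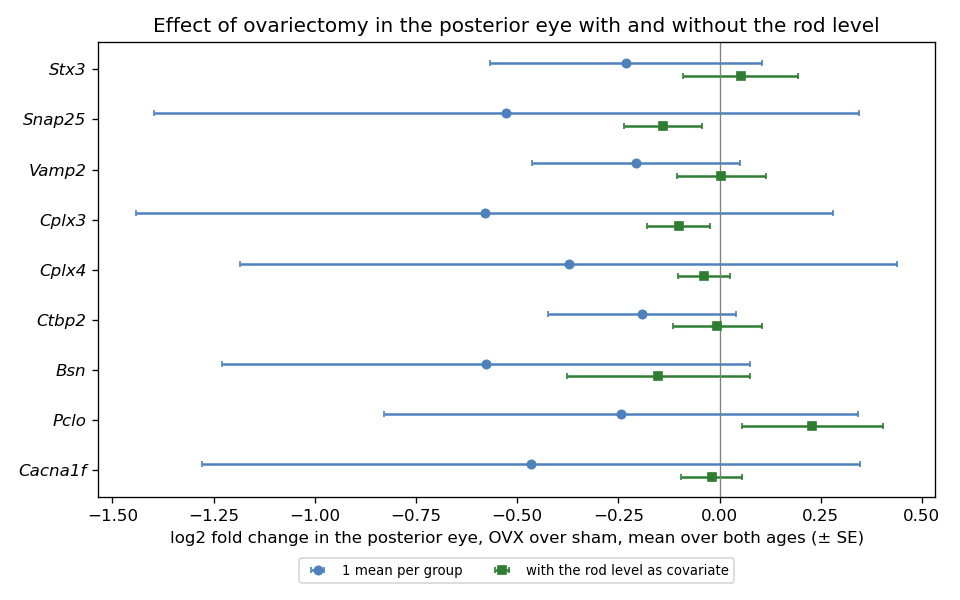
log2 fold change in the posterior eye, OVX over sham as the mean over both ages (x axis, ± SE), of each gene (rows), from the fit with 1 mean per group (circles) and from the fit with the rod level as a covariate (squares). For Cplx4 the error is 0.81 without the covariate and 0.06 with it.

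Within the ages the posterior eye gave no call among the 9 genes either. By edgeR 0 of 9 were called in young OVX against young sham (0.0061% of all genes) and in aged OVX against aged sham (0%), in aged sham against young sham (0%), in aged OVX against young OVX (0%) and in the interaction (0%). None of the 9 had an unadjusted p under 0.05 in any of these 5 comparisons. The share of all genes with such a p by edgeR ran from 2.57% to 10.1%. DESeq2 and limma-voom called none of the 9. Stx3 had -0.18 ± 0.47 in young and -0.28 ± 0.47 in aged animals, and Snap25 -0.46 ± 1.23 and -0.59 ± 1.23. Of 72 partners tested in the posterior eye 10 lay above 0 and 62 below over both ages, where 49% of all genes lay above 0. The rod markers all lay below 0 in the same comparison, and the part of rod content in the partner values was not tested. By edgeR 2 partners had an unadjusted p under 0.05, beside 5.72% of all genes, while edgeR, DESeq2 and limma-voom each called 0. Between aged OVX and young OVX eyes DESeq2 called 1 of 73 partners, Stx2, which edgeR did not call (log2 -0.35 ± 0.09, adjusted p = 0.266). The share of all genes that DESeq2 called there is not given here, so nothing is read from that count. In young OVX against young sham eyes Stx2 had 0.34 ± 0.09 by edgeR (adjusted p = 0.661).

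The retina was last set against the posterior eye. All 9 genes were higher in the retina, beside 48.5% of all 17153 genes. By edgeR all 9 were called, with 93% of all genes called in that comparison, so the count of calls is close to the background. Values set across tissues rest on a TMM scale shared by both, in a comparison where most genes were called. The log2 fold change was 2.45 ± 0.18 for Stx3, 2.12 ± 0.13 for Vamp2 and 2.02 ± 0.12 for Ctbp2, and 2.65, 2.24 and 2.11 with the animal as a block. It was 3.32 ± 0.45 for Cacna1f, 3.19 ± 0.48 for Cplx3, 3.16 ± 0.44 for Cplx4 and 3.11 ± 0.48 for Snap25. With the animal as a block these 4 came to 4.42, 4.44, 4.25 and 4.41. Bsn had 3.15 ± 0.33 and Pclo 2.90 ± 0.31, and with the block 3.76 and 3.51. Of the 73 partners 63 were higher in the retina and 10 lower, all called.

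The difference of the OVX effect, retina minus posterior eye, was 0.08 ± 0.33 for Stx3, 0.27 ± 0.26 for Vamp2, 0.07 ± 0.23 for Ctbp2 and 0.57 ± 0.88 for Cplx3 on the log2 scale. It draws on the retinal contrast taken as used in the choice, so these values are a description, and nothing is read from the 0 of 9 called beside 0.00583% of all genes. The errors of the 9 values ran from 0.23 for Ctbp2 to 0.89 for Snap25.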

How the data were processed

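Retina and posterior eye RNA of 24 animals was measured by sequencing. Total RNA was turned into cDNA with a SMART-Seq low-input kit, per the labels' protocols, cut into fragments with the Nextera XT kit and read from both ends on a NovaSeq, with no strand-marking step described, so overlapping and antisense genes cannot be told apart. For each tissue the authors deposited a table that gives, gene by gene, the count of reads as whole numbers. STAR 2.7.3a (aligner), HTSeq (counter), DESeq2 and the rat build Rnor_6.0 are named in the submitters' processing notes; the annotation is not given in the sources used here, nor are the options of the counter. Gene names come from the tables. Each table held 32883 genes, and 25 names turned into dates in the posterior eye table took no part in the fit over both tissues.

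The test was the quasi-likelihood F test of edgeR 4.0.16 (R 4.3.3) with TMM scaling and filterByExpr, fitting 1 mean for each group to the 24 libraries of each tissue, or over 48 for comparisons of tissues. It left 15481 genes in the retina, 16401 in the posterior eye and 17153 across both. Two-sided p-values were adjusted (Benjamini-Hochberg) across every gene of the fit, with calls under 0.05. The standard error of a log2 fold change was taken as its size over √F. CPM use the TMM-scaled library size. DESeq2 1.42.0, limma-voom (limma 3.58.1), other scaling, no filter, fits of 2 groups, marker covariates and left-out libraries were the alternatives. DESeq2 was fitted to every gene with a count, without filterByExpr. The scripts were tested on simulated data. Retina and posterior eye libraries with one number come from the same animal per the titles, so the numbers pair them across tissues and the fit with the animal as a block was run there. Within a tissue no numbers are shared between groups.

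The 9 genes, the partner and marker lists and the tests were chosen with earlier results of these data known. By the naming rule all 9 genes may be named in each comparison, and where none was called the text gives some of them. From each partner list, called genes or up to 2 with the smallest p may be named, and the 5 genes most like Stx3 by r. Some genes of the rod and partner lists, Prph2, Snap23, Sv2b and Rgs11 among them, were not analysed here. Promoters come from a RefSeq table of build GRCr8, which is not the build of the counts, and matched 8 of the 9 symbols.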

Additional observations from a re-analysis of the deposited data

Results flagged for a closer look

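In 4 of 72 groups of 6 libraries, 1 library stood apart from the other 5 by Dixon's test, and chance flags about 1 group in 20. All 4 were in the retina and on the low side. Cacna1f was at 660.2 CPM in aged OVX animal 23, where the group median was 809 CPM. Cplx3 was at 494 CPM in the same library, where the median was 556 CPM. Vamp2 was at 626 CPM in aged OVX animal 22, where the median was 705 CPM. Cacna1f was at 707 CPM in young sham animal 5, where the median was 811 CPM.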

How the results depend on the processing

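Of 388 counts of called ribbon synapse genes under the alternatives, 366 were as in the main fit and 22 moved, all in the retina for OVX against sham over both ages. There the count of 1 (Stx3) became 0 with no filter on low counts, 0 with a covariate for pigment epithelium and 0 with one for lens, the last added after the data were seen. With 1 library left out it ran from 0 to 1, at 0 in 19 of 24 fits. It stayed at 1 with DESeq2 size factors, DESeq2, limma-voom and the rod level as a covariate. The choice of the set fixes the count of the main fit, so these counts describe the threshold and lend Stx3 no support. Over all genes that comparison called 48 by DESeq2 and 9 by limma-voom, against 8 by edgeR, and 0 with either the lens or the pigment epithelium covariate. In the other retina comparisons DESeq2 called 63 genes against 3 by edgeR (young OVX against young sham), 9 against 1 (aged OVX against aged sham), 68 against 6 (aged sham against young sham), 67 against 11 (aged OVX against young OVX) and 22 against 7 (interaction). With the pigment epithelium covariate these counts were 0, 0, 0, 2 and 0. Among the single-gene fold changes under alternatives other than left-out libraries, 844 kept their direction and side of the threshold, 53 changed sign without being called in either fit, 3 lost the call of Stx3 and 0 turned a call round. In the paired analysis across tissues, with the replicate block by animal, 9 of 9 genes were called in the retina against posterior eye, as without it, and 0 in the difference of the OVX effect. The cause of these changes was not tested. The spread of the posterior eye libraries, with a common biological coefficient of variation of 33.4% against 12.0% in the retina, limits what could be detected there.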
